A study of Homo sapiens with 6 samples.

Results

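The genes described here are 39 components of glucose breakdown and of the response to low oxygen, taken by symbol as 39 of the 53719 rows of the gene count table. They cover glucose uptake, the glycolytic route, lactate handling, the entry of pyruvate into mitochondria, the hypoxia-inducible factors (HIF) with their oxygen sensors, and a set of genes known to respond to HIF. RNA came from H9 cells, a long-established line of human embryonic stem cells, grown in RSeT, a medium sold for keeping such cells in a naive-like state. Of the 6 libraries, 3 are from cells given a gapmer against ALR, the RNA of the alpha satellite repeats at centromeres (knockdown libraries a, b and c), and 3 are from cells given a control gapmer (control libraries a, b and c). A gapmer is a short antisense oligonucleotide whose DNA core makes RNase H cut the paired RNA, and all 6 libraries were taken 48 h after transfection. The labels do not say whether libraries of a group came from separate cultures, so p-values measure the spread between these libraries, which may be technical. ALR RNA itself was not analysed here. In bulk RNA, fewer cells that express a gene and less of its RNA per cell cannot be told apart.

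Glycolysis splits glucose into pyruvate in the cytosol, yielding ATP without oxygen. Pyruvate is then either reduced to lactate by lactate dehydrogenase and exported, or passed to the mitochondria through pyruvate dehydrogenase, which the PDK kinases switch off. When oxygen is low, prolyl hydroxylases (the EGLN enzymes) stop marking HIF proteins for destruction, and HIF raises transcription of most glycolytic genes along with genes for pH control, collagen maturation and mitophagy. Pluripotent stem cells in culture are known for strong glycolysis, and primed cells are known to lean on it more than naive cells do.

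Total counts per library ran from 25087629 to 36576752. Knockdown library a stood apart, with a count in 29678 rows where the others had 25898 to 26788, and it lay at -53.4 on the first principal component against 4.82 to 15.4 for the other 5. Of 7 pluripotency markers, 6 were detected, with a summed level of 4202 to 4777 CPM (counts scaled to library size by the TMM method) in knockdown and 4250 to 4351 CPM in control libraries, whereas the SOX2 row was listed at 0 in every library. Of 7 naive markers, 5 had a mean of at least 1 CPM and the sum was 67.0 to 74.3 CPM in knockdown and 65.4 to 71.4 CPM in control libraries. KLF17, a defining naive marker, had 1 to 10 counts per library. Of 5 primed markers, 4 had a mean of at least 1 CPM, with a sum of 122 to 141 CPM in knockdown and 123 to 135 CPM in control libraries. The summed level of 5 trophectoderm markers was 1.78 to 2.39 CPM over all libraries, and none reached a mean of 1 CPM.

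Of the 39 genes, 38 had counts and all 38 passed the filter on low counts. The exception was ALDOC, a brain-enriched aldolase, whose row was listed at 0 in all 6 libraries. Since SOX2, which these cells use, was listed at 0 as well, a row of zeros in this table is not taken as absence of the RNA.

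Promoter sequences are shown for LDHA, BNIP3, ENO1 and ENO2, because LDHA held the most copies of the core of the HIF response element, BNIP3 was the hypoxia-response gene with the smallest p, and the 2 enolases differed in opposite directions between the groups. The core searched was ACGTG on either strand (that is, ACGTG or CACGT), in the 250 bases before the RefSeq start of each gene, in assembly GRCh38.p14. Capitals mark the core. CACGTG holds the core on both strands and is counted as 2 overlapping matches. The windows are chr11:18394313-18394562 (plus strand) for LDHA, chr10:131981924-131982173 (minus strand) for BNIP3, chr1:8878687-8878936 (minus strand) for ENO1 and chr12:6914330-6914579 (plus strand) for ENO2.
LDHA: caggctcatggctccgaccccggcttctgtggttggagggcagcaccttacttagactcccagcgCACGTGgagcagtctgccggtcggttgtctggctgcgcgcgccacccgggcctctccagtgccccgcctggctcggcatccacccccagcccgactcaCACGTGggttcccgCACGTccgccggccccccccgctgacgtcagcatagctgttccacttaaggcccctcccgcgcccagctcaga
BNIP3: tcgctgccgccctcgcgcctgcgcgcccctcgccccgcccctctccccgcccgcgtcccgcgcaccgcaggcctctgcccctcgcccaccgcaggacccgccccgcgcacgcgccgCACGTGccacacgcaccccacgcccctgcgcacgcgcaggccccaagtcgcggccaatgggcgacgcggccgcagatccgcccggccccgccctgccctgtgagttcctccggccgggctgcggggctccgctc
ENO1: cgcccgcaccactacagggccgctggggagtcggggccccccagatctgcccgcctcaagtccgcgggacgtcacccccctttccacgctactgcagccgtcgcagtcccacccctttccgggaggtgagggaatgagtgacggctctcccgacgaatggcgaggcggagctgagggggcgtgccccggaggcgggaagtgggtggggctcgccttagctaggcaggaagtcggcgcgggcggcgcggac
ENO2: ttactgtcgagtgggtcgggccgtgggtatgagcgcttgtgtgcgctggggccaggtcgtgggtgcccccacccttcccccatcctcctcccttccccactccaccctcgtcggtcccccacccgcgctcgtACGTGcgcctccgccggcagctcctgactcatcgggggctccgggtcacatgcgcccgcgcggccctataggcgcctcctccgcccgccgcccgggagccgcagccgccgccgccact
LDHA had 5 matches, of which 4 lay in its 2 copies of CACGTG, BNIP3 had 2 matches in 1 CACGTG, ENO2 had 1 and ENO1 had 0 in this window. Of the 39 genes, 35 had a RefSeq promoter sequence here, and 14 of these held the core (40.0%). Among 27305 promoters of the same length the share was 18.7%. The windows were not matched for GC content, which ran from 35.6% (PDK1) to 81.6% (BNIP3) among the 35. The share with the core was 38.5% for the 13 genes with an unadjusted p under 0.05. It was 38.1% for the 21 other tested genes with a promoter sequence. Whether the core is linked to the differences between the groups was not tested. Some windows lie inside the annotated gene, among them those of GAPDH and ENO2, which count as holding the core. The ENO1 window, which holds none, also lies inside its annotated gene (8861000 to 8879250). The LDHA and BNIP3 windows lie partly inside theirs. The ENO1 and ENO2 matches therefore do not describe the bases before the annotated genes. The GAPDH window is chr12:6535014-6535263, and its annotated gene runs from 6533927 to 6538374. A match of 5 letters is a description of the sequence and not a bound site.

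Measured per length of annotated exon, the RNA levels of these genes in the control libraries ran from 0.175 ± 0.0259 to 371 ± 20.5 CPM per kb (SD, n = 3 here and below). GAPDH, which oxidises glyceraldehyde phosphate, was the highest. PGAM1, a phosphoglycerate mutase, followed at 194 ± 4.56, then ENO1, the widely expressed enolase, at 164 ± 5.31. LDHB and TPI1 came next at 143 ± 8.94 and 143 ± 7.98 CPM per kb and did not differ beyond their spread. PKM and PGK1, also of the later steps, had 80.7 and 59.3 CPM per kb. The order depends on the length used. By CPM without length, ENO1 (864) and PKM (691) came next after GAPDH (1105). The phosphofructokinase subunits, which carry out the committed step, had 23.4 ± 1.60 (PFKP), 10.7 ± 0.864 (PFKL) and 5.62 ± 0.315 CPM per kb (PFKM).

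Some pairs of related genes were unequal, while HK1 and HK2 were closer at 28.5 ± 0.449 and 23.9 ± 1.05 CPM per kb. SLC2A3, the high-affinity glucose carrier, had 79.6 ± 1.10 CPM per kb and SLC2A1, the general one, 28.4 ± 0.655. Of the lactate carriers, SLC16A1 (MCT1) had 83.6 ± 3.03 CPM per kb and SLC16A3 (MCT4, the form known as a HIF target) 0.508 ± 0.0734. Of the HIF alpha subunits, HIF1A had 6.11 ± 0.503 and EPAS1 (HIF2A) 0.175 ± 0.0259 CPM per kb. CA9, a carbonic anhydrase that is among the most HIF-dependent genes known, was close to the bottom at 0.389 ± 0.235 CPM per kb, with 6 to 30 counts per library, and ANKRD37, another known HIF target, had 0.484 ± 0.180 with 23 to 55 counts.

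**Figure D1:**
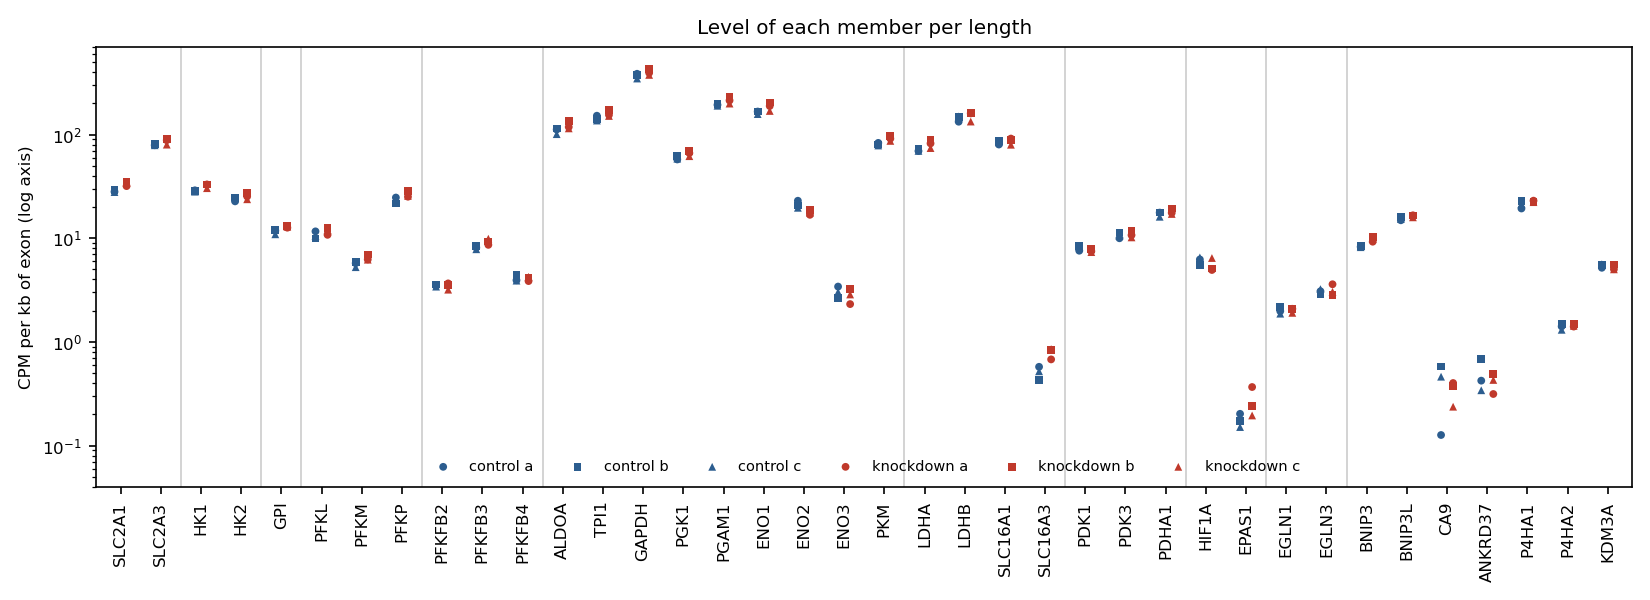
Level of each of the 38 detected genes in each library, as CPM per kb of annotated exon on a log axis, with control libraries in blue and knockdown libraries in red (circle a, square b, triangle c). Grey lines separate roles, from glucose carriers on the left to other hypoxia-response genes on the right. GAPDH was the highest at 371 CPM per kb in control libraries, and EPAS1, CA9, ANKRD37 and SLC16A3 lay below 1.

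The comparison sets cells given the ALR gapmer against cells given the control gapmer. Loss of ALR RNA and other effects of this gapmer cannot be told apart here. None of the 38 passed a Benjamini-Hochberg adjusted p of 0.05 in edgeR's quasi-likelihood test, where 0.786% of the 19721 genes tested did, 0.137% higher and 0.649% lower. At an unadjusted p under 0.05 there were 13 genes, 12 higher and 1 lower in knockdown libraries (34.2% of 38), where 14.3% of all genes tested reached that level, 6.68% higher and 7.57% lower. The DESeq2 Wald test passed 2 genes after adjustment, SLC2A1 and SLC16A3, where it passed 2.72% of all genes, and limma-voom passed 0, where it passed 0.882%. The estimate lay above 0 for 30 of the 38 genes (78.9%) and below 0 for 8, against 54.4% and 45.6% of all genes tested. The median log2 fold change was 0.11 over the 38 genes and 0.02 over all genes. In 15 of the 38 genes (39.5%) there was no overlap between groups, 14 higher and 1 lower in knockdown, where 18.9% of all genes tested did not overlap, 9.55% higher and 9.37% lower. These shares describe a list whose genes are mostly highly expressed. Among the 4931 tested genes in the highest 25% by mean level, 44.7% lay above 0, the median log2 fold change was -0.01 and 22.1% had an unadjusted p under 0.05. Of the 25 listed genes in that range, 22 lay above 0, with a median of 0.14.

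The differences were small. In 29 of the 38 genes the estimate was smaller than 0.2 on the log2 scale, and in 34 the 95% interval of the log2 fold change lay wholly within -0.5 to 0.5. The 4 wider intervals belonged to SLC16A3, EPAS1, CA9 and ANKRD37, which were among the lowest in level.

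**Figure D2:**
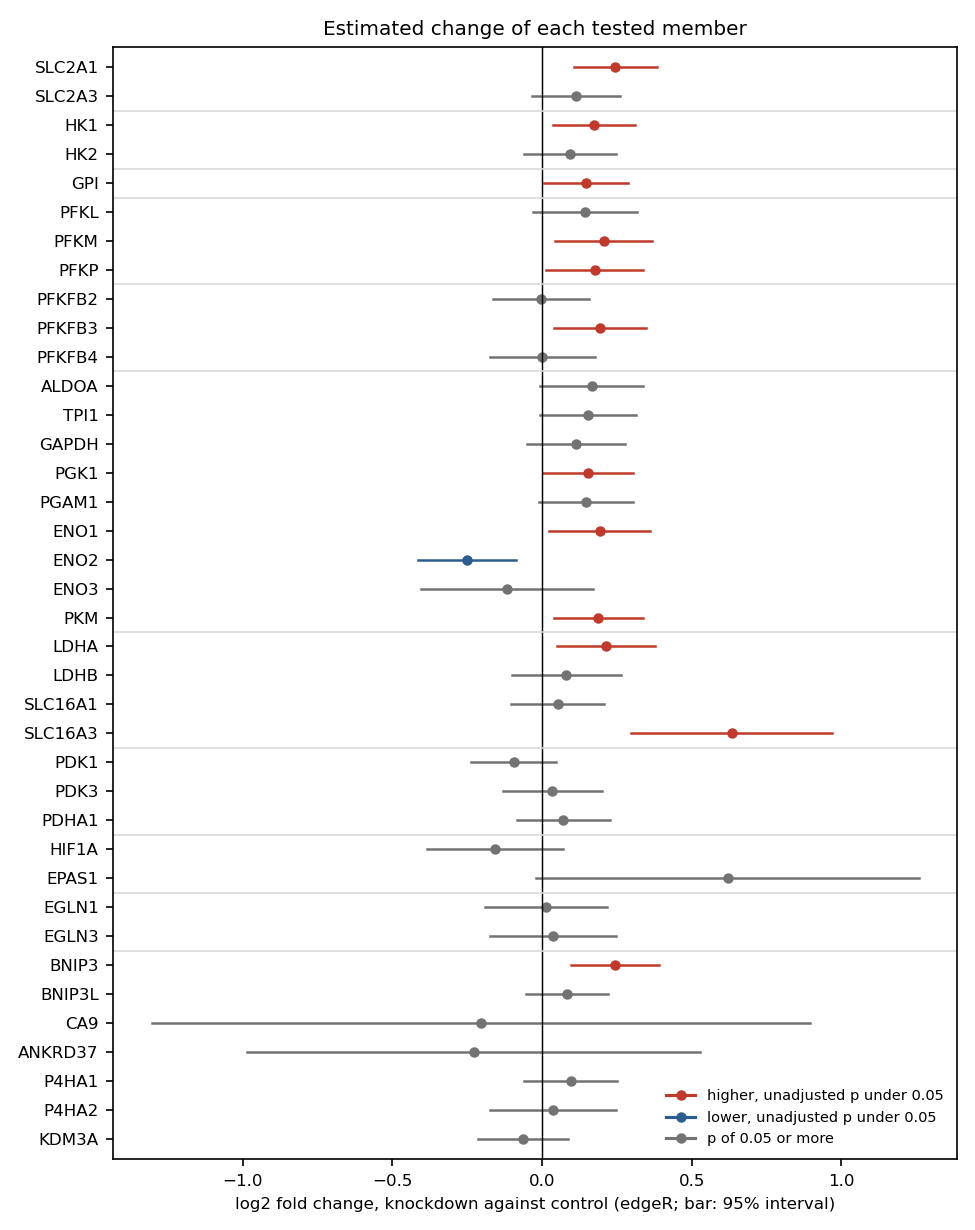
Log2 fold change of knockdown against control for each of the 38 tested genes from edgeR, with bars for 95% intervals; red and blue mark an unadjusted p under 0.05 (12 higher, 1 lower) and grey the rest. From SLC2A1 down to SLC16A3 the estimates mostly lie right of 0, with ENO2 to the left, while the hypoxia-response genes at the bottom scatter around 0.

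The genes of the route itself, with the glucose and lactate carriers, held most of the higher estimates. Of the 24 tested genes of this kind 21 lay above 0, with a median log2 fold change of 0.15, and 12 had an unadjusted p under 0.05, where 14.3% of all genes did. Of the 14 genes of the pyruvate dehydrogenase gate and the hypoxia response 9 lay above 0, with a median of 0.04, and 1 had an unadjusted p under 0.05. The difference between these sets was not tested. The median deviation of the 24 genes from their mean over all libraries was 0.05, 0.16 and -0.01 (log2) in the knockdown and -0.06, -0.04 and -0.10 in the control libraries. For the 14 genes it was 0.02, 0.06 and -0.03 against -0.04, 0.06 and -0.04, so the groups overlapped.

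Knockdown library b had the highest value for 19 of the 38 genes and control library c the lowest for 17. When each library was left out in turn, the estimate lay above 0 for 27 to 32 of the 38 genes and their median log2 fold change was 0.08 to 0.12. The number of genes with an unadjusted p under 0.05 varied more. It was 6 with knockdown library b left out, where 11% of all genes reached that level, 7 with control b left out (9.72% of all genes) and 5 with control c left out (8.51%). Without knockdown library c it was 19 (19.3% of all genes), and 5 genes then passed the adjusted threshold, all higher in knockdown: SLC2A1, HK1, ENO1, PKM and LDHA. In that fit 6.40% of all genes passed. Without knockdown library a, the library that stood apart, it was 10 (13.3% of all genes). Some markers also sat higher in knockdown libraries. Of the pluripotency markers, POU5F1 had 120.3, 152 and 127 CPM in knockdown and 114, 87.8 and 97.4 CPM in control libraries, and LIN28A had 1771, 1890.0 and 1609 against 1533, 1561 and 1528 CPM, both without overlap. DPPA4 went the other way, with 883, 921 and 895 against 933, 954 and 936 CPM, also without overlap. The groups overlapped for NANOG, L1TD1 and TDGF1. The summed level of 6 mesoderm and endoderm markers, most of it MIXL1, was 14.8 to 16.0 CPM in knockdown and 11.6 to 14.4 CPM in control libraries, and that of 3 neural markers, most of it NES, was 353 to 401 against 302 to 355 CPM. SOX17, a defining endoderm marker, had 0 to 4 counts per library, and the sum of 5 fibroblast markers was 86.0 to 95.1 against 90.1 to 103 CPM. Their part in the result was not tested.

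**Figure D3:**
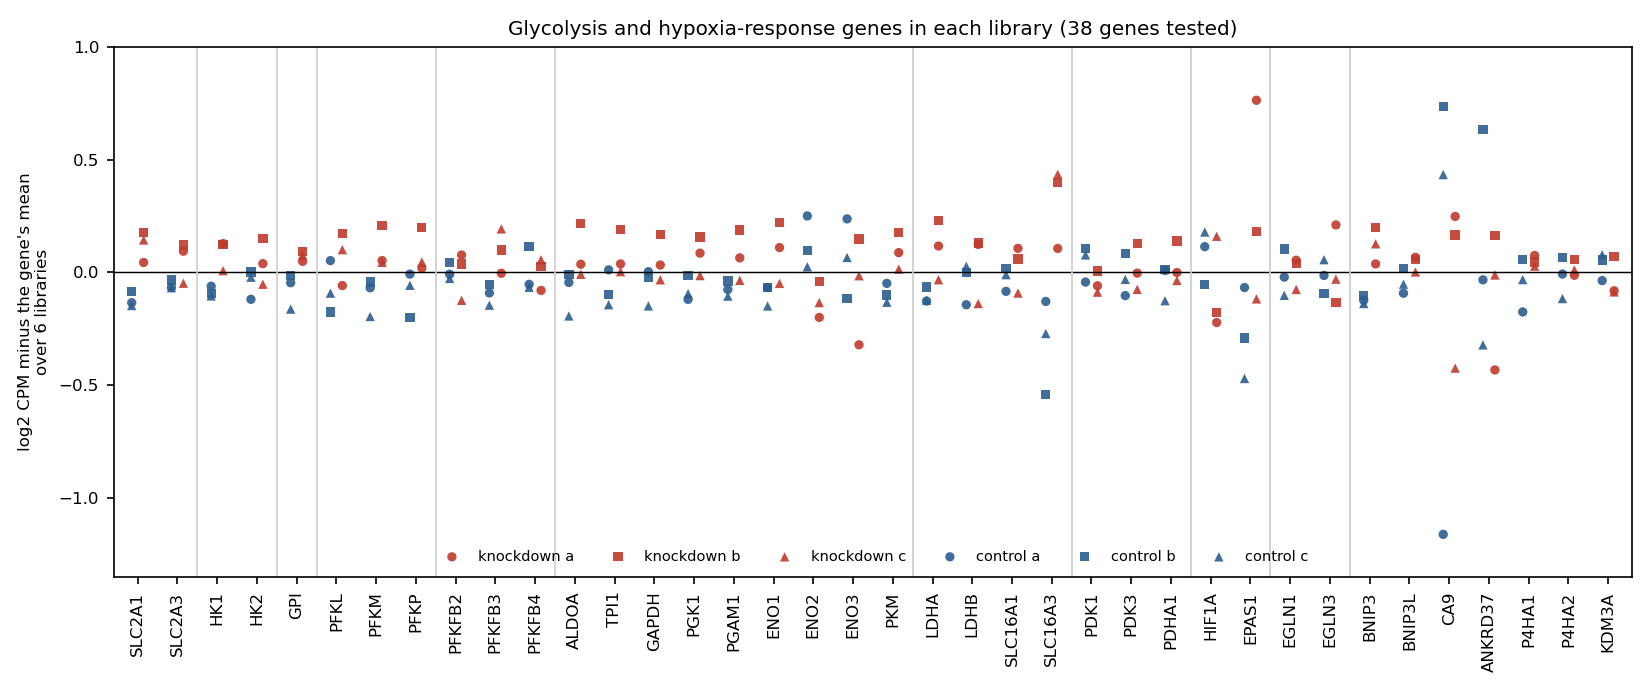
Each tested gene's log2 CPM minus its mean over the 6 libraries, with control libraries in blue and knockdown libraries in red (circle a, square b, triangle c), by role. The red squares (knockdown library b) are the highest points for 19 of the 38 genes, ENO2 is the gene whose blue points all lie above the red, and the widest scatter belongs to CA9 and ANKRD37.

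SLC2A1 (ENSG00000117394.21, chromosome 1, 42925375 to 42959176 in GENCODE 29 on GRCh38), which carries glucose across the plasma membrane of most cells, had 150.4, 165 and 161 CPM in knockdown and 133, 138 and 132 CPM in control libraries (values of a group are given in the order a, b, c throughout). Every knockdown library lay above every control, and the log2 fold change was 0.24 ± 0.06 (SE), or 18.5% higher (edgeR adjusted p = 0.107). SLC2A3 had 544, 554 and 493 CPM against 486, 498 and 486, where knockdown library c fell among the controls and the log2 fold change was 0.11 ± 0.07 (edgeR adjusted p = 0.477). HK1, the hexokinase bound to the outer mitochondrial membrane that phosphorylates glucose in most cells, had 208, 208 and 191 CPM against 183, 178 and 177, without overlap, and the estimate was 0.17 ± 0.06 on the log2 scale (edgeR adjusted p = 0.241). HK2, the inducible hexokinase and a known HIF target, had a log2 fold change of 0.09 with a 95% interval of -0.06 to 0.25, and its groups overlapped.

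In the upper part of the route, GPI, which turns glucose phosphate into fructose phosphate, had 135, 139 and 138 CPM in knockdown and 126, 129 and 117 CPM in control libraries. The groups did not overlap, and the log2 fold change was 0.15 ± 0.06 (edgeR adjusted p = 0.330). All 3 phosphofructokinase subunits had estimates above 0. PFKM, the muscle-type subunit, had 45.7, 50.9 and 45.5 CPM against 42.0, 42.8 and 38.5 (log2 fold change 0.21 ± 0.07; edgeR adjusted p = 0.240). PFKP, the platelet-type subunit, had 122, 138 and 124 CPM against 119, 105 and 115 (0.18 ± 0.07; edgeR adjusted p = 0.309). For both, the lowest knockdown library exceeded the highest control. Exons of PFKM share 628 bases with SENP1 on the opposite strand. SENP1 had a mean count of 1579 and a log2 fold change of -0.11 ± 0.06. The strand setting of the counting is not given, so part of the PFKM reads could belong to SENP1. PFKL, the liver-type subunit, had a log2 fold change of 0.14 with a 95% interval of -0.03 to 0.32, and control library a lay above knockdown library a.

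The PFKFB enzymes make and remove fructose 2,6-bisphosphate, the strongest activator of phosphofructokinase. PFKFB3, the form that mostly makes the activator, had 52.8, 56.8 and 60.5 CPM in knockdown and 49.7, 51.0 and 47.9 CPM in control libraries, with no overlap and an estimate of 0.19 ± 0.07 on the log2 scale (edgeR adjusted p = 0.242). PFKFB2 and PFKFB4 had estimates near 0, with 95% intervals of -0.16 to 0.16 and -0.17 to 0.18. PFKFB4 is a known HIF target, as is PFKFB3.

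Of the 9 tested genes of lower glycolysis, 7 had estimates above 0 and 2, both enolases, below. ALDOA, the main aldolase, had 464, 526 and 449.5 CPM in knockdown against 438, 449 and 395 CPM in control libraries, with the lowest knockdown value close above the highest control (log2 fold change 0.17 ± 0.08; edgeR adjusted p = 0.370). TPI1, which interconverts the triose phosphates, had a log2 fold change of 0.15 with a 95% interval of -0.005 to 0.31. GAPDH had 1175, 1291 and 1123 CPM against 1151, 1129.6 and 1036, so the groups overlapped and the log2 fold change was 0.11 ± 0.08 (edgeR adjusted p = 0.530). GAPDH is often used as a reference gene, and the 95% interval of its log2 fold change was -0.05 to 0.28.

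PGK1, which makes the first ATP of the payoff phase, had 366, 384 and 341.3 CPM against 317, 341.1 and 323, with knockdown library c barely above control library b (log2 fold change 0.15 ± 0.07; edgeR adjusted p = 0.337). PGAM1 had 548, 597 and 511.5 CPM against 497, 510.6 and 487, likewise separated by less than the spread within each group (0.15 ± 0.07; edgeR adjusted p = 0.379). PKM, pyruvate kinase, had 784, 834 and 745 CPM against 713, 688 and 673 (0.19 ± 0.07; edgeR adjusted p = 0.242). Every knockdown library lay above every control for PKM.

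The enolases, which turn phosphoglycerate into phosphoenolpyruvate, did not follow each other. ENO1 (ENSG00000074800.15, chromosome 1, 8861000 to 8879250) had 996, 1075 and 892 CPM in knockdown and 881, 881 and 832 CPM in control libraries, higher in knockdown without overlap (log2 fold change 0.19 ± 0.08; edgeR adjusted p = 0.287). ENO2 (ENSG00000111674.8, chromosome 12, 6913745 to 6923698), the neuron-type form and a known HIF target, had 72.1, 80.5 and 75.4 CPM against 98.5, 88.6 and 84.2. It was the one gene of the 38 in which every knockdown library lay below every control, with an estimate of -0.25 ± 0.08 on the log2 scale (edgeR adjusted p = 0.161). ENO3, the muscle form, had a log2 fold change of -0.12 with a 95% interval of -0.41 to 0.17, and its groups overlapped. ENO2 passed the adjusted threshold in 3 of 16 alternative fits: with no filter on low counts, with the trend on gene span removed (-0.29; edgeR adjusted p = 0.0454) and with the trend on transcript GC content removed (-0.31; edgeR adjusted p = 0.0476). Over all 16 its log2 fold change was -0.31 to -0.18 and its adjusted p 0.0385 to 0.376.

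Ratios of counts between related genes within a library do not depend on how libraries are scaled. The log2 ratio of ENO2 to ENO1 was -3.79, -3.74 and -3.56 in knockdown and -3.16, -3.31 and -3.30 in control libraries. The group means were -3.70 ± 0.12 and -3.26 ± 0.09 (SD, n = 3), a difference of -0.44 without overlap. This was the largest difference among the 9 ratios computed. The groups also did not overlap for SLC2A3 to SLC2A1 (-0.13), PDK1 to PDK3 (-0.13) and BNIP3 to BNIP3L (0.16). They overlapped for LDHA to LDHB (0.13), HK2 to HK1 (-0.08), PFKP to PFKL (0.03), PFKM to PFKL (0.06) and P4HA2 to P4HA1 (-0.06). No test was made on these ratios, and the share of other gene pairs without overlap was not computed. A ratio shows unequal change of its 2 genes without saying which moved.

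**Figure D4:**
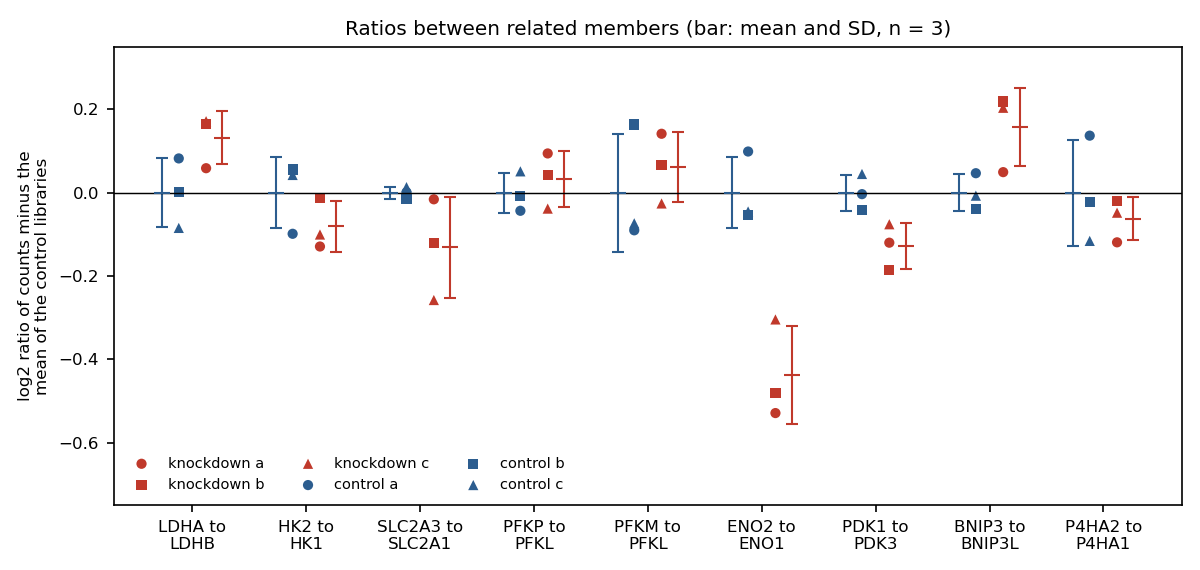
Log2 ratio of counts for 9 pairs of related genes in each library, minus the mean of the control libraries (blue control, red knockdown; circle a, square b, triangle c), with the mean and SD of each group beside the points. The ENO2 to ENO1 ratio lies 0.44 lower in knockdown libraries on average.

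At the pyruvate branch, LDHA, the lactate dehydrogenase subunit that favours lactate formation, had 511, 552 and 460.3 CPM in knockdown and 431, 450.1 and 432 CPM in control libraries. The groups did not overlap, and the log2 fold change was 0.21 ± 0.08, or 16.0% higher (edgeR adjusted p = 0.233). LDHB, the heart-type subunit, had 478, 480.0 and 399 CPM against 397, 438 and 447, with knockdown library c among the controls (0.08 ± 0.08; edgeR adjusted p = 0.710). SLC16A1, which exports lactate in most cells, had a log2 fold change of 0.05 with a 95% interval of -0.10 to 0.21.

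SLC16A3 (ENSG00000141526.16, chromosome 17, 82228397 to 82261129), the low-affinity lactate exporter, had the smallest p of the 38 genes. It had 6.10, 7.49 and 7.68 CPM in knockdown and 5.17, 3.86 and 4.68 CPM in control libraries, from 120 to 250 counts per library. All knockdown libraries lay above all controls, and the log2 fold change was 0.63 ± 0.15, or 55.1% higher (edgeR adjusted p = 0.0895). Its log2 fold change was 0.52 to 0.73 over 16 alternative fits, with an adjusted p of 0.00721 to 0.351. In GENCODE 29, 482 bases of its exons overlap CSNK1D on the opposite strand, whose mean count was 1142 and whose log2 fold change was -0.13 ± 0.10 (edgeR adjusted p = 0.572). The strand setting of the counting is not given in the sources used here, so reads of the shared bases could belong to either.

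The pyruvate dehydrogenase gate showed no gene at an unadjusted p under 0.05. PDHA1, the catalytic alpha subunit, had 79.0, 87.0 and 77.0 CPM in knockdown and 79.4, 79.7 and 72.4 CPM in control libraries, which overlapped (log2 fold change 0.07 ± 0.07; edgeR adjusted p = 0.702). PDK1, the HIF-induced kinase that inactivates the complex, had -0.09 with a 95% interval of -0.24 to 0.05, and PDK3, a related kinase, 0.03 with an interval of -0.13 to 0.20. Exons of PDHA1 share 956 bases with MAP3K15 on the opposite strand.

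The HIF subunits and their sensors did not pass either. HIF1A, the oxygen-regulated subunit HIF-1 alpha, had 25.5, 26.2 and 33.2 CPM in knockdown and 32.2, 28.6 and 33.6 CPM in control libraries. Knockdown libraries a and b lay below all controls and c among them, and the log2 fold change was -0.16 ± 0.10 (edgeR adjusted p = 0.535). It was -0.30 without knockdown library c (edgeR adjusted p = 0.0754), -0.09 without knockdown library a, -0.10 without control library c and -0.09 with the trend on transcript GC content removed, and the adjusted p over all 16 alternatives was 0.0754 to 0.839. EPAS1 had 36 to 76 counts per library and a log2 fold change of 0.62 with a wide 95% interval of -0.02 to 1.26. Its highest level, 2.68 CPM, was in knockdown library a, the library that stood apart, and without that library the log2 fold change was 0.33. HIF protein is controlled mainly after translation, which RNA counts do not show. EGLN3, an oxygen sensor that is itself a known HIF target, had 26.5, 20.9 and 22.4 CPM against 22.7, 21.5 and 23.8, a difference within the spread (0.04 ± 0.10; edgeR adjusted p = 0.899). EGLN1, the main sensor, had a log2 fold change of 0.01 with an interval of -0.19 to 0.22.

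Among the 7 other hypoxia-response genes, 4 had estimates above 0 and 3 below. BNIP3 (ENSG00000176171.11, chromosome 10, 131966455 to 131982013), a mitophagy receptor of the outer mitochondrial membrane, had 49.3, 55.1 and 52.5 CPM in knockdown and 44.1, 44.8 and 43.7 CPM in control libraries. The lowest knockdown library lay clear of the highest control, and the log2 fold change was 0.24 ± 0.07, or 18.5% higher (edgeR adjusted p = 0.127). Its paralog BNIP3L (NIX) had 0.08 with a 95% interval of -0.05 to 0.22. P4HA1, a subunit of the collagen prolyl hydroxylase, had 71.3, 69.9 and 69.0 CPM against 59.9, 70.4 and 66.2, which overlapped (0.10 ± 0.07; edgeR adjusted p = 0.577). P4HA2, its paralog, had 0.04 (interval -0.17 to 0.25) and KDM3A, a histone demethylase induced by HIF, -0.06 (interval -0.21 to 0.09).

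CA9 and ANKRD37 were too sparse to be resolved at this depth. The log2 fold change of CA9 was -0.20 with a 95% interval of -1.30 to 0.90, and that of ANKRD37 was -0.23 with an interval of -0.99 to 0.53. Exons of CA9 share 643 bases with ARHGEF39 and those of ANKRD37 share 909 bases with UFSP2, in both cases on opposite strands, so part of their few reads could come from those genes.

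Glycolytic genes have many processed copies in the genome, to which reads can be misassigned. The table held 58 rows named as GAPDH copies, of which 28 had counts, together 0.835% to 1.16% of the GAPDH count per library. Copies of TPI1 held 5.10% to 5.75% and those of BNIP3 3.02% to 5.58% of the parent's count, and those of LDHA 0.515% to 0.624%. The treatment of multi-mapping reads is not given in the sources used here, so how many reads of these genes and their copies were exchanged or dropped is unknown.

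Other genes of the pathways were read from lists chosen for this comparison. Of 56 further genes of glycolysis, pyruvate use, gluconeogenesis and glycogen, 42 could be tested and 0 passed the adjusted threshold in edgeR, where 0.786% of all genes did. At an unadjusted p under 0.05 there were 9 higher and 4 lower, where 6.68% and 7.57% of all genes were, and the median log2 fold change was 0.05. DESeq2 passed 2 of them, the row C12orf5 and GBE1, and 2.72% of all genes. C12orf5 is an older symbol of TIGAR, a phosphatase that lowers fructose 2,6-bisphosphate and is a known p53 target. It had 27.0, 26.6 and 25.6 CPM in knockdown and 32.9, 36.2 and 31.1 CPM in control libraries, below without overlap (log2 fold change -0.34 ± 0.08; edgeR adjusted p = 0.0753), and it passed with the replicate block (-0.34; edgeR adjusted p = 0.0453). GBE1, the glycogen branching enzyme, had 37.05, 37.5 and 39.5 CPM against 44.6, 45.5 and 47.6 (-0.27 ± 0.07; edgeR adjusted p = 0.0889). The 3 knockdown libraries lay below the 3 controls for both. With the trend on gene span removed, C12orf5 passed and GBE1, which spans 272463 bases, did not. SLC16A8, a lactate carrier of the retinal pigment epithelium, had 2.89, 3.18 and 3.92 CPM against 2.22, 1.67 and 2.50 (0.64 ± 0.22; edgeR adjusted p = 0.221).

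The 53 further genes of the HIF pathway and the hypoxia response share PFKFB1 with the former list. Of these 53, 49 could be tested and 0 passed the adjusted threshold in edgeR. At an unadjusted p under 0.05 there were 7 higher and 9 lower, where 6.68% and 7.57% of all genes were, and the median log2 fold change was -0.01. DESeq2 passed 2 of them, KDM4C and ZNF395, and 2.72% of all genes. KDM4C, a histone demethylase and known HIF target, had 126, 127 and 158 CPM in knockdown and 192, 171 and 183 CPM in control libraries, below without overlap (log2 fold change -0.41 ± 0.09; edgeR adjusted p = 0.0626), and it passed with the replicate block (-0.42; edgeR adjusted p = 0.0147). KDM4C spans 454786 bases and did not pass with the trend on gene span removed, where 1 gene of this list, BHLHE40, did. ZNF395 had 18.3, 19.2 and 15.5 CPM against 13.8, 13.1 and 13.5, above without overlap (0.39 ± 0.10; edgeR adjusted p = 0.0947). BHLHE40, a transcriptional repressor induced by HIF, had 9.80, 11.9 and 8.82 CPM against 13.9, 13.4 and 13.9 (-0.43 ± 0.12; edgeR adjusted p = 0.124). ADM, a known HIF target that encodes the vessel-dilating peptide adrenomedullin, was picked after its values were seen and had -0.45 ± 0.14 (edgeR adjusted p = 0.165). VEGFA, the main vessel growth factor under HIF control, was likewise picked afterwards and had 0.03 (edgeR adjusted p = 0.903). Whether HIF targets as a set differed between the groups was not tested. The HIF core was present in 21 of 40 promoters of this list (52.5%) and in 14 of 47 of the former list (29.8%). These windows were not matched for GC content either.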

How the data were processed

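RNA was compared between 3 knockdown and 3 control libraries of H9 cells. The authors deposited raw read counts per gene symbol. Per the submitters' processing notes the tools were Trimmomatic 0.39, STAR 2.7.8a, featureCounts and Subread 2.14.2, with build hg38; annotation, strand setting and filters are not given in the sources used here. From the counts, edgeR 4.0.16 (R 4.3.3) was run on all 6 libraries with filterByExpr defaults, TMM scaling and a quasi-likelihood test with group as the only term, two-sided, Benjamini-Hochberg adjusted over 19721 genes at 0.05. SE and 95% intervals come from the F statistic and its degrees of freedom. Depth was 25087629 to 36576752 counts, and the common coefficient of variation 0.103. Exon lengths, identifiers and overlaps are from GENCODE 29, which matched 32849 rows by current or older symbol, all 39 genes among them. Promoters are from RefSeq. The procedure was tested on simulated counts. The genes and lists were chosen with earlier results of these data known. Every gene was accounted for; values in all libraries are given for genes with an unadjusted p under 0.05 or no overlap, for the most abundant per length of each role, and for the 3 smallest p of each further list. Alternatives used DESeq2 1.42.0, limma 3.58.1 (voom), other scalings and filters, the replicate block, each library left out, and trends on gene span or transcript GC removed (splines, 5 degrees of freedom).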

Additional observations from a re-analysis of the deposited data

How the results depend on the processing

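Across 16 alternative fits, 15 of them planned and the fit on transcript GC content added after the data were seen, the median log2 fold change of the 38 genes stayed between 0.08 and 0.13 and the count above 0 between 27 and 32. Single genes moved more. With the trend on transcript GC content removed, ALDOA fell from 0.17 to 0.07, PFKL from 0.14 to 0.04 and GAPDH from 0.11 to 0.04. Genes with an unadjusted p under 0.05 also fell: PFKP from 0.18 to 0.10, PFKFB3 from 0.19 to 0.11 and GPI from 0.15 to 0.08. SLC2A1 fell from 0.24 to 0.17, while HK1 (0.17 to 0.16) and PFKM (0.21 to 0.20) moved little. In the same fit PGK1 rose from 0.15 to 0.21 and SLC2A3 from 0.11 to 0.14. The count of the 38 genes past the adjusted threshold was 0 in 11 of the 16. It was 2 with DESeq2, 3 with no filter on low counts (SLC2A1, SLC16A3 and ENO2), 1 (ENO2) with the gene span trend removed, 1 (ENO2 again) without the GC trend, and 0 to 5 when a library was left out. The count at an unadjusted p under 0.05 was 5 to 19 when a library was left out. Of the further glycolysis genes, 2 passed with DESeq2, 3 with no filter, 1 with the span trend removed and 0 to 3 when a library was left out, the highest without knockdown library c. Of the further hypoxia genes, 2 passed with DESeq2, 1 with limma-voom, 8 with no filter, 1 with the span trend removed and 0 to 5 when a library was left out. Of all genes tested, 155 passed in the edgeR fit with all libraries, 536 with DESeq2, 1064 with no filter, 263 with the span trend removed and 26 to 1309 when a library was left out. The cause was not tested.

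No pairing by replicate letter was seen: deviations from the group means correlated at 1.23e-05 (a), 0.116 (b) and -0.0251 (c). With the replicate block, 0 of the 38 genes, 1 further glycolysis gene, 1 further hypoxia gene and 393 of all genes passed.

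The sign of the estimate held in 578 of 602 fits of a gene under an alternative. It turned for PFKFB2 (-0.0024 with all libraries) to 0.025 with library size alone, 0.016 with upper-quartile scaling and 0.038 without the GC trend, and for PFKFB4 (0.0017) to -0.0041 with DESeq2 size factors and with the DESeq2 Wald test, -0.010 without the span trend and -0.058 without the GC trend. When a library was left out, estimates of both signs were found for PFKFB2 (-0.044 to 0.035), PFKFB4 (-0.045 to 0.056), ENO3 (-0.24 to 0.00090), PDK3 (-0.030 to 0.080), EGLN1 (-0.034 to 0.064), EGLN3 (-0.069 to 0.10), CA9 (-0.60 to 0.17), ANKRD37 (-0.43 to 0.10) and P4HA2 (-0.010 to 0.075). Depth limits CA9, ANKRD37 and EPAS1, with at most 76 counts per library.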
